A study of Mus musculus with 8 samples.

Results

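The transcription factor NRF2, its inhibitor KEAP1, its competitor BACH1 and a set of their target genes were examined in 4 mouse fibrosarcoma cell lines by RNA-Seq. The genes were taken from the deposited count table by symbol, and all 10 were found among its 18768 genes: the regulators Nfe2l2 (NRF2), Keap1 and Bach1, and the targets Nqo1, Txnrd1, Srxn1, Osgin1, Me1, Taldo1 and Hmox1. Each line was grown from 1 subcutaneous tumor that the carcinogen methylcholanthrene had induced, and was passaged at least 10 times. MC010 and MC011 carry the label KO and came from IRF8 KO mice, which lack the transcription factor IRF8, whereas MC654 and MC659 carry the label WT and came from IRF8 wild-type mice of the C57BL/6 strain. The age of the mice is not given in the sources used here. All cultures were untreated, in RPMI medium with serum and antibiotics, and each line gave 2 libraries, so that each label has 4 libraries from 2 tumors. A difference between labels therefore cannot be told apart from a difference between individual tumors.

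NRF2 is a transcription factor that is made continuously and destroyed continuously. KEAP1 binds it and hands it to the CUL3-RBX1 ubiquitin ligase, and electrophiles or oxidants that modify KEAP1 let NRF2 accumulate, pair with a small MAF protein and bind antioxidant response elements. BACH1 pairs with the same small MAF proteins and represses many of these elements until heme releases it, with Hmox1 its best known target. NRF2 activity is therefore set largely at the protein level, and the RNA of its targets is commonly used to follow it. The targets supply thioredoxin, glutathione and NADPH, detoxify quinones and handle heme and iron, which links the pathway to the defence against lipid peroxidation and ferroptosis.

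The libraries held 74063616 to 116206078 counts. Irf8, the targeted gene, went against the labels in its RNA counts. The libraries labelled KO held 442 and 347 counts in MC010 and 32 and 10 in MC011. Those labelled WT held 1 and 2 in MC654 and 1 and 0 in MC659. By PCR of genomic DNA the paper typed MC010 and MC011 as KO and MC654 and MC659 as WT, as labelled. A count over the whole gene does not show whether the deleted part was read, so every direction below is a direction between labelled libraries. The fibroblast and mesenchymal markers were all in the table, 8 of 8. They summed to 9510 to 10500 CPM (counts per 1000000 counts of a library) in the libraries labelled KO. In those labelled WT they summed to 14400 to 16100 CPM. Vim, at 4530 to 7380 CPM, and Fn1, at 1140 to 8130 CPM, made up most of it. The sum therefore does not describe each marker. Of the hematopoietic markers 4 of 8 were in the table, and they summed to 5.72 to 7.38 CPM under the KO label and 9.67 to 11.4 CPM under the WT label, with Ptprc at 0 in 2 libraries. Most of this sum came from 1 gene, Cd68, at 5.25 to 10.1 CPM. Csf1r was at most 1.8 CPM, Cd79a at most 0.19 CPM and Ptprc at most 0.177 CPM. The 3 of 3 endothelial markers summed to at most 0.789 CPM, with Kdr at 0 in 1 library. The 3 of 4 epithelial markers in the table summed to at most 2.34 CPM, with Cdh1 at 0 in 1 library and Krt14 in 2. The epithelial sum was 2.05 to 2.34 CPM in MC011 and at most 0.5 CPM in each other line. The part of these cell type markers in the results below was not tested. In bulk libraries of this kind, fewer cells expressing a gene and less RNA per cell cannot be told apart.

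The sequences below are shown because NRF2 and BACH1 act on their targets through short elements that share a core with AP-1 sites. RefSeq promoter windows of build GRCm38.p6, from 250 bases before to 50 after an annotated start, were found for 9 of the 10 genes, with 12 windows in all and none for Hmox1. They were searched on both strands for the antioxidant response element core TGACNNNGC, the related form TGAGTCAGC and the AP-1 core TGANTCA. The last of these overlaps both others. The capitals mark the matched letters, and each stretch runs 5′ to 3′ on the strand of its gene.
Nfe2l2, chr2:75704855-75704913, minus strand: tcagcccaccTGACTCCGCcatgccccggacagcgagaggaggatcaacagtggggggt
Srxn1, chr2:152105382-152105515, plus strand: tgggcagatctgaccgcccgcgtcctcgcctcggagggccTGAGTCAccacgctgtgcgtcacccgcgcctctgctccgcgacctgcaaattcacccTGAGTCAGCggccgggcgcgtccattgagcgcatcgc
Osgin1, chr8:119437008-119437096, plus strand: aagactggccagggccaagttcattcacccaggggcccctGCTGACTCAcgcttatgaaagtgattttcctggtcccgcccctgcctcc
Txnrd1, chr10:82859074-82859162, plus strand: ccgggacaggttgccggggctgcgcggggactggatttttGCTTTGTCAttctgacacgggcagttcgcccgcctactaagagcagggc
Me1, chr9:86695902-86695930, minus strand: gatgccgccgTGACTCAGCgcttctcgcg

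Srxn1 held TGANTCA at 2 places before its start, the nearer of which lay within TGAGTCAGC at bases -45 to -37, and a TGACNNNGC match after its start that is not printed. The Osgin1 match was TGAGTCAGC on the opposite strand at bases -99 to -91 of a start inside the annotated span of the gene. Txnrd1 had TGACNNNGC on the opposite strand at bases -92 to -84 of a start that also lies inside the annotated span of its gene. The Nfe2l2 promoter itself held TGACNNNGC at bases -240 to -232, and the Me1 match spanned its start, from base -6 to 3, within an annotated exon. TGAGTCAGC was found in 2 of the 12 windows and in 0.414% of all 32851 windows. TGACNNNGC was in 4 of 12 and in 12.4% of all windows, and TGANTCA was in 3 of 12 and in 7.81%. A match describes letters in a window and not a bound site.

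Most of these genes were higher in the libraries labelled KO, and 1 was lower. A gene was called where its adjusted p from edgeR was under 0.05 and its log2 fold change was above 0.59 in size, over the 15153 genes tested. Between the labels 7 of the 10 genes were called, 6 higher (Bach1, Nqo1, Txnrd1, Srxn1, Osgin1 and Me1) and 1 lower (Hmox1), where 22.5% of all genes tested were called, 13.7% as higher and 8.72% as lower. Their median log2 fold change was 0.74 against 0.02 over all genes. The 10 genes were chosen with earlier results of these data known, so these shares describe them and carry no test. For 9 of the 10 genes, all but Taldo1, the 4 libraries of one label did not overlap the 4 of the other, where 42.5% of all genes had no overlap, 22.1% with the KO label higher and 20.5% with it lower. At an adjusted p under 0.05 with no fold threshold 9 of the 10 passed, against 37.5% of all genes. The count changed with the lines included: it was 4 without MC010, where 29.4% of all genes tested were called, 9 without MC011 (36.3%), 5 without MC654 (12.7%) and 4 without MC659 (11.6%). When the counts of each line were summed, so that 2 tumors stood against 2, edgeR called 0 of the 10 and 0 of all genes. Unadjusted p was then under 0.05 for 8 of the 10 and for 3361 genes, and the adjusted p of the 10 ran from 0.0941 for Bach1 to 0.422 for Taldo1. With limma-voom and line as a random block, 5 of the 10 were called, 4 higher and 1 lower, where 12.4% of all genes were called.

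**Figure D1:**
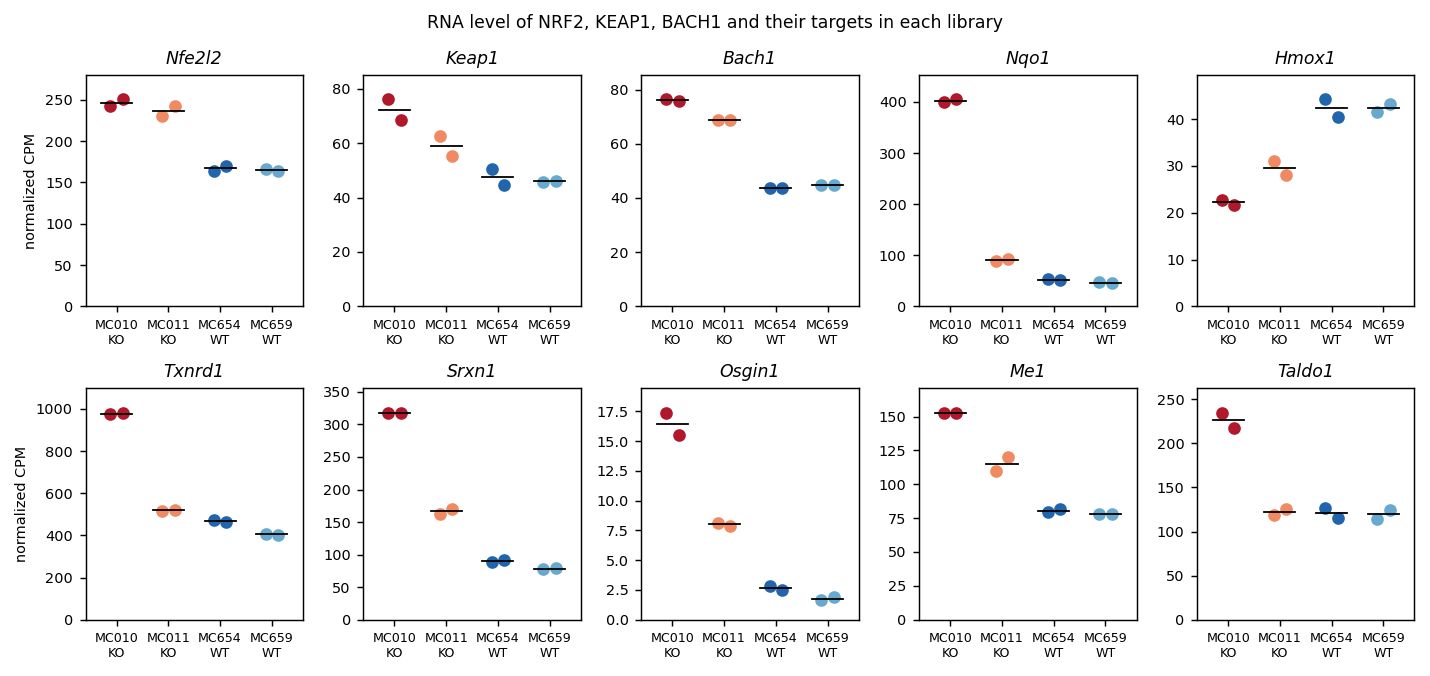
CPM of the 10 genes in each of the 8 libraries, one panel per gene on a linear axis that starts at 0, with the points grouped and colored by line. The 2 libraries of a line lie close together, MC010 stands highest for 9 genes, and Hmox1 runs the other way.

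The RNA for NRF2 itself differed modestly. Nfe2l2 (ENSMUSG00000015839, mm10 chromosome 2, 75675513 to 75704641, minus strand) was at 242.5 and 250.5 CPM in MC010, 230.8 and 242.9 CPM in MC011, 164.4 and 170.1 CPM in MC654, with 166.8 and 164.1 CPM for MC659. The labels did not overlap, and the lines within each label lay close to each other. The means were 241.7 ± 8.13 and 166.3 ± 2.80 CPM (SD, n = 4 libraries each). The log2 fold change of 0.54 (SE 0.05, edgeR adjusted p = 9.83e-05) passed the test but lay under the fold threshold. MC010 and MC011 differed by 0.06 on the log2 scale (SE 0.05, adjusted p = 0.281), and the lines labelled WT by 0.02 (SE 0.05, adjusted p = 0.871). Against both lines labelled WT the log2 fold changes were 0.57 (SE 0.04) for MC010 and 0.51 (SE 0.04) for MC011. The first became 0.59, just past the fold threshold, without replicate 1 of MC010.

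Keap1 (ENSMUSG00000003308, chromosome 9, 21229730 to 21239361, minus strand), which encodes the adaptor that presents NRF2 for destruction, was higher under the same label as NRF2. Its levels were 76.1 and 68.7 CPM in MC010, 62.8 and 55.4 CPM in MC011, 50.4 and 44.7 CPM in MC654, with 45.8 and 46.2 CPM for MC659. The lowest library labelled KO was 1 of MC011 and lay above the highest labelled WT. The log2 fold change between labels was 0.49 (SE 0.10, edgeR adjusted p = 0.00599), under the fold threshold. MC010 was called against the lines labelled WT, at 0.63 (SE 0.06), and lay under the threshold at 0.56 without replicate 1 of MC010 and at 0.59 without replicate 2 of MC654. MC011 stood at 0.34 (SE 0.06) against the same lines, and the difference of 0.29 between the lines labelled KO passed the test (SE 0.07, adjusted p = 0.0024). Without MC011 the difference between labels was 0.62 and was called. A gene on the other strand, Gm16754, overlaps Keap1 and held 1.25% as many counts.

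Bach1 (ENSMUSG00000025612, chromosome 16, 87698945 to 87733346, plus strand), the repressor of Hmox1 and related targets, was higher under the KO label as well. It was at 76.4 and 75.7 CPM in MC010, 68.9 and 68.9 CPM in MC011, 43.8 and 43.7 CPM in MC654, with 44.9 and 44.8 CPM for MC659. The 2 libraries of each line nearly coincided, and both lines labelled KO stood well above both labelled WT. The log2 fold change was 0.71 (SE 0.06, edgeR adjusted p = 7.33e-05), with 0.78 for MC010 and 0.64 for MC011 against the lines labelled WT, each called. Bach1 was the regulator among the 3 that was called in both of these lines. MC010 exceeded MC011 by 0.14 on the log2 scale (SE 0.05, adjusted p = 0.0182), and the lines labelled WT did not differ beyond their spread (adjusted p = 0.713).

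Nqo1 (ENSMUSG00000003849, chromosome 8, 107388225 to 107403206, minus strand) encodes a quinone reductase and is a standard readout of NRF2. It was at 399.0 and 404.9 CPM in MC010, 89.2 and 93.3 CPM in MC011, 52.9 and 51.6 CPM in MC654, with 47.7 and 45.7 CPM for MC659. MC010 was far above every other line, and MC011 was above both lines labelled WT. The difference between labels was 4.98-fold, a log2 fold change of 2.32 (SE 0.54, edgeR adjusted p = 0.0114). MC010 was 8.14-fold higher than the lines labelled WT (log2 3.02, SE 0.04, adjusted p = 7.39e-18) and MC011 was 1.85-fold higher (log2 0.88, SE 0.04, adjusted p = 2.28e-11). MC010 exceeded MC011 4.41-fold (log2 2.14, SE 0.05, adjusted p = 1.13e-14). The difference between labels was 0.86 on the log2 scale without MC010 and was still called. It missed the threshold without MC654 (adjusted p = 0.111), without MC659 (adjusted p = 0.132) and with limma-voom (adjusted p = 0.066).

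Txnrd1 (ENSMUSG00000020250, chromosome 10, 82833951 to 82897712, plus strand), the cytosolic thioredoxin reductase, was the most abundant of the 10 genes in CPM. It was at 974.2 and 982.2 CPM in MC010, 515.9 and 520.9 CPM in MC011, 474.1 and 462.0 CPM in MC654, with 407.4 and 401.8 CPM for MC659. MC010 stood apart, and MC011 was only a little above MC654. Against the lines labelled WT, MC010 was 2.25-fold higher (log2 1.17, SE 0.03, edgeR adjusted p = 5.75e-14), whereas MC011 differed by 0.25 on the log2 scale (SE 0.03, adjusted p = 9.79e-06), under the fold threshold. The difference of 0.92 between MC010 and MC011 was called (SE 0.04, adjusted p = 2.26e-11). The difference between labels, 0.78 (SE 0.24, adjusted p = 0.0334), was the least secure of those called. It became 0.23 without MC010. It missed the threshold without any single library of MC010, MC654 or MC659 (adjusted p = 0.0649 to 0.0884), without MC654 (adjusted p = 0.142) and without MC659 (adjusted p = 0.239).

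Srxn1 (ENSMUSG00000032802, chromosome 2, 152105516 to 152111376, plus strand), sulfiredoxin, restores overoxidized peroxiredoxins, and its promoter held both printed matches. It was at 317.4 and 318.1 CPM in MC010, 163.1 and 170.1 CPM in MC011, 88.9 and 91.3 CPM in MC654, with 77.3 and 79.3 CPM for MC659. The levels fell from line to line in that order, with no overlap between neighboring lines. Srxn1 was 2.88-fold higher under the KO label (log2 1.52, SE 0.24, edgeR adjusted p = 0.00205), 3.78-fold in MC010 and 1.98-fold in MC011 against the lines labelled WT, both called. The difference of 0.93 between MC010 and MC011 was called too. Without MC659 the difference between labels was 1.42 and its adjusted p was 0.0526.

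Osgin1 (ENSMUSG00000074063, chromosome 8, 119434124 to 119446256, plus strand), an oxidative stress-induced growth inhibitor, was the scarcest of the 10 genes and had the highest fold between labels. It was at 17.4 and 15.5 CPM in MC010, 8.14 and 7.87 CPM in MC011, 2.80 and 2.50 CPM in MC654, with 1.64 and 1.89 CPM for MC659. Its lowest library held 145 counts, so the level was measured in every library. The difference between labels was 5.53-fold (log2 2.47, SE 0.33, edgeR adjusted p = 9.08e-04), with 7.60-fold in MC010 and 3.70-fold in MC011 against the lines labelled WT. Both were called, as was the difference of 1.04 between MC010 and MC011 (SE 0.11, adjusted p = 6.14e-07). MC654 exceeded MC659 by 0.58 (SE 0.14, adjusted p = 0.0104), just under the fold threshold. That difference passed the threshold, at 0.59 to 0.69, when replicate 2 of MC010, replicate 1 of MC011, replicate 2 of MC654 or replicate 2 of MC659 was left out.

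The NADPH-linked targets differed from each other. Me1 (ENSMUSG00000032418, chromosome 9, 86581371 to 86695953, minus strand), the cytosolic malic enzyme, was at 152.7 and 152.9 CPM in MC010, 109.7 and 120.4 CPM in MC011, 79.3 and 81.4 CPM in MC654, with 77.7 and 77.7 CPM for MC659. Both lines labelled KO were above both labelled WT, by 0.95 on the log2 scale in MC010, which was called, and 0.54 in MC011, which lay under the fold threshold and reached 0.60 without replicate 1 of MC011. The difference between labels was 0.76 (SE 0.11, edgeR adjusted p = 0.00143) and became 0.52 without MC010, under the fold threshold.

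Taldo1 (ENSMUSG00000025503, chromosome 7, 141392199 to 141402968, plus strand), transaldolase of the pentose phosphate pathway, was at 234.8 and 217.9 CPM in MC010, 118.6 and 125.2 CPM in MC011, 126.3 and 115.0 CPM in MC654, with 114.3 and 124.5 CPM for MC659. MC010 was the 1 line that stood out, and the libraries of the other lines overlapped. MC010 was 1.89-fold higher than the lines labelled WT (log2 0.92, SE 0.05, edgeR adjusted p = 1.75e-10), and MC011 differed from them by 0.02 (SE 0.05, adjusted p = 0.733). The difference of 0.89 between the lines labelled KO was called (SE 0.06, adjusted p = 3.54e-09). Between labels the log2 fold change was 0.54 (SE 0.23, adjusted p = 0.101). It was called without replicate 1 of MC011 (0.68, adjusted p = 0.034), without replicate 2 of MC011 (0.66, adjusted p = 0.0462) and without MC011 altogether (0.91).

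Hmox1 (ENSMUSG00000005413, chromosome 8, 75093621 to 75100589, plus strand), heme oxygenase, which breaks heme down and releases its iron, was the gene that ran the other way. It was at 22.7 and 21.7 CPM in MC010, 31.1 and 28.1 CPM in MC011, 44.2 and 40.3 CPM in MC654, with 41.5 and 43.1 CPM for MC659. The lines labelled KO lay below those labelled WT with no overlap, and MC010, highest for the other genes, was lowest here. Hmox1 was 1.63-fold lower under the KO label (log2 -0.71, SE 0.12, edgeR adjusted p = 0.00267). Against the lines labelled WT it was 1.90-fold lower in MC010 (log2 -0.93, called) and stood at -0.51 on the log2 scale in MC011 (SE 0.06, adjusted p = 1.82e-06), under the fold threshold. The MC011 value reached -0.60, past the threshold, without replicate 1 of MC011, and the difference between labels became -0.53, under it, without MC010. MC010 was lower than MC011 by -0.41 (SE 0.07, adjusted p = 8.77e-05).

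Taken line by line, MC010 had 9 of the 10 genes called against the lines labelled WT, 8 higher and Hmox1 lower, where 37.1% of all genes were called, 19.7% higher and 17.4% lower. MC011 had 4 called against the same lines, all higher (Bach1, Nqo1, Srxn1 and Osgin1), where 30.7% of all genes were called, 17.3% higher and 13.4% lower. With no fold threshold 10 genes passed for MC010, against 70.6% of all genes, and 9 for MC011, against 65.3%. These comparisons share their controls, and the medians of the 10 log2 fold changes were 0.93 and 0.53. Between MC010 and MC011 themselves 5 genes were called, Nqo1, Txnrd1, Srxn1, Osgin1 and Taldo1, all higher in MC010, where 31.6% of all genes were called, 15.7% higher in MC010 and 16% lower. With no fold threshold 9 genes passed there, against 63% of all genes. The lines labelled WT differed least: 0 of the 10 genes were called by edgeR between MC654 and MC659, where 4.95% of all genes were called, 1.24% higher in MC654 and 3.71% lower. Nqo1, Txnrd1, Srxn1 and Osgin1 had an adjusted p under 0.05 there and were higher in MC654, against 14.5% of all genes in either direction and 5.48% higher in MC654. For 8 genes the order of the lines was MC010, MC011, MC654 and MC659. Bach1 had MC659 before MC654, a difference within the spread, and Hmox1 had the order MC659, MC654, MC011 and MC010. The neighbors MC654 and MC659 did not differ beyond their spread for Nfe2l2, Keap1, Bach1, Hmox1, Me1 and Taldo1. Neither did MC010 and MC011 for Nfe2l2, nor MC011 and MC654 for Taldo1 (adjusted p = 0.852).

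**Figure D2:**
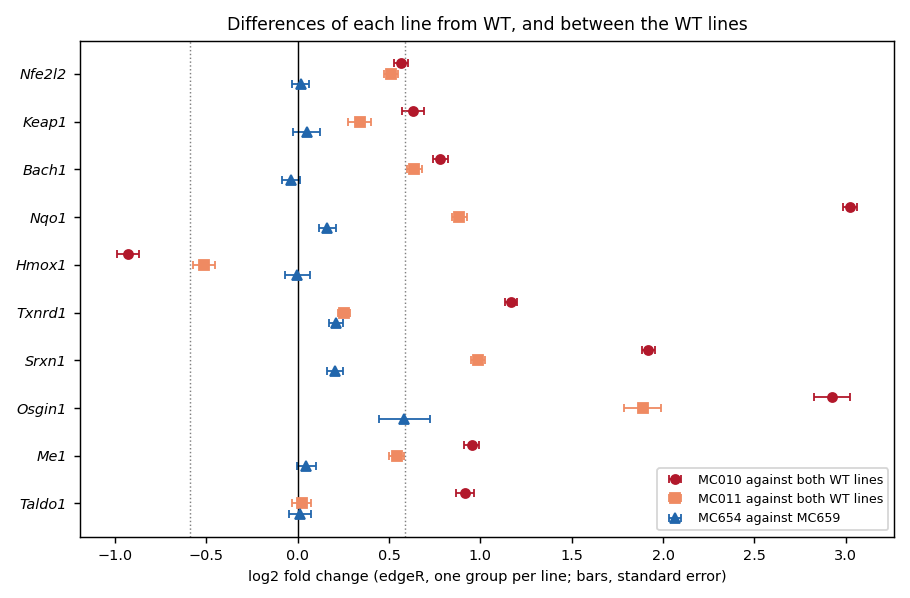
Log2 fold changes of the 10 genes for MC010 and for MC011, each against both lines labelled WT, and for MC654 against MC659. Bars are standard errors from the edgeR fit, and dotted lines mark the fold threshold of 0.59. MC010 and MC011 lie close together for Nfe2l2 and Bach1, and MC010 lies far above MC011 for Nqo1, Txnrd1, Srxn1, Osgin1 and Taldo1.

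Divided by exonic length (RPKM, the CPM of a gene per kilobase of its exons), the targets and regulators could be compared with each other. In MC010 the highest level was that of Nqo1, 259 RPKM, followed by Txnrd1 at 138, Srxn1 at 113 and Taldo1 at 104 RPKM, all above Nfe2l2 at 64.9 RPKM. In MC011 the highest was Txnrd1 at 73.2 RPKM, with Nfe2l2 at 62.4, Srxn1 at 59.1, Nqo1 at 58.7 and Taldo1 at 56.1 RPKM. In MC654 Txnrd1 stood at 66.1 RPKM, Taldo1 at 55.6, Nfe2l2 at 44.1, Nqo1 at 33.6 and Srxn1 at 32.0 RPKM. The level of Nqo1 thus lay above that of Nfe2l2 in MC010 and below it in MC654 and MC659. In MC011 they were close, at 58.7 and 62.4 RPKM, an order that rests on the exon lengths used. Keap1 and Bach1 were several times below Nfe2l2 in every line, at 15.4 and 12.3 RPKM in MC010 and 9.79 and 7.25 RPKM in MC659. Hmox1 was at 12.7 RPKM in MC010, close to Bach1, and at 24.2 RPKM in MC659, well above it. Osgin1 was lowest throughout, from 6.14 RPKM in MC010 to 0.661 RPKM in MC659.

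**Figure D3:**
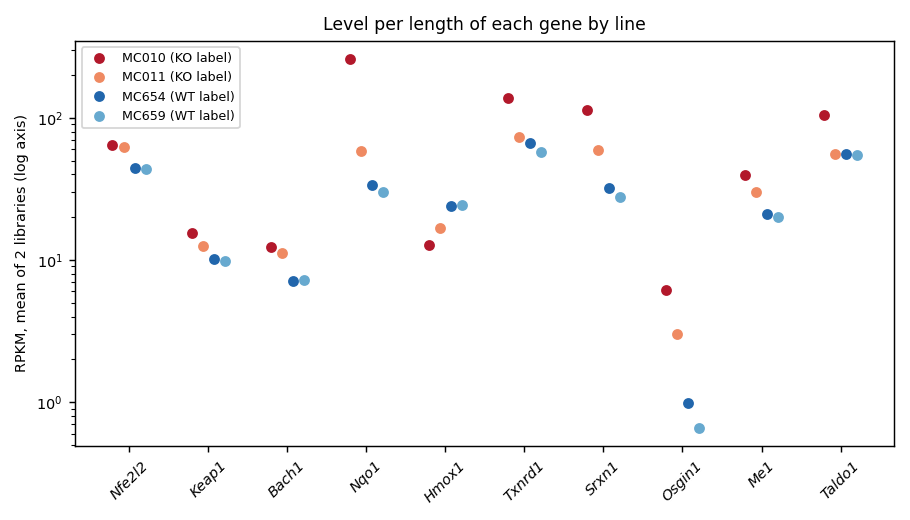
Level of each gene in RPKM on a log axis, one point per line as the mean of its 2 libraries. Nqo1 spans 30.1 to 259 RPKM across the lines, whereas Nfe2l2 spans 43.6 to 64.9 RPKM.

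The list of other regulators of NRF2 held 18 genes, the related CNC factors, the small MAF proteins, ubiquitin ligase parts and KEAP1-binding proteins, of which 17 were tested. Between labels 3 were called, all higher, a share of 17.6% against 22.5% of all genes, and the median log2 fold change was -0.13 against 0.02 over all genes. Of these, Maff, a small MAF partner of NRF2 and BACH1, differed most (log2 1.23, SE 0.14, edgeR adjusted p = 3.73e-04). It was at 35.4 and 35.0 CPM in MC010 and 29.0 and 29.5 CPM in MC011. In MC654 it was at 16.7 and 14.5 CPM, and in MC659 at 11.7 and 12.1 CPM. The other small MAF genes on the list, Mafg and Mafk, were not called. Dpp3, whose protein binds KEAP1, was at 187.8 CPM in MC010, 128.2 in MC011, 101.4 in MC654 and 85.7 CPM in MC659 as line means (log2 0.76, adjusted p = 0.00703). Rbx1, the ring subunit of the ligase that KEAP1 serves, was at 108.4, 131.8, 80.0 and 76.7 CPM in the same order (log2 0.62, adjusted p = 0.00107). Between MC010 and MC011 1 regulator was called, or 5.88% against 31.6% of all genes. It was Nfe2l3, a relative of NRF2, with 3 counts over both MC010 libraries and 56 over both MC011 libraries. The ratio was 20, with an exact 95% interval of 6.5 to 99.9 that covers counting error only. Against the lines labelled WT, 2 regulators were called higher and 2 lower in MC010, which is 23.5% against 37.1% of all genes, and 2 higher and 1 lower in MC011, which is 17.6% against 30.7%. Between MC654 and MC659 1 was called, lower in MC654, which is 5.88% against 4.95% of all genes.

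Many other NRF2 targets were higher in MC010 than in the lines labelled WT. The list held 31 genes, of which 26 were tested. It was chosen with earlier results of these data known, so its shares describe the list and carry no test. Between labels 9 were called, all higher, a share of 34.6% against 22.5% of all genes. The median log2 fold change was 0.54 against 0.02 over all genes. Aldh3a1 is among these 9, and among those called for MC010 and for MC011 against the lines labelled WT. It passed the low-count filter only through the libraries labelled KO, so it could only be called higher there. MC010 had 14 called against the lines labelled WT, all higher, or 53.8% against 37.1% of all genes, with a median of 0.72. MC011 had 6 higher and 3 lower against the same lines, or 34.6%, near the 30.7% of all genes, with a median of 0.13. Between MC010 and MC011 15 were called, all higher in MC010, or 57.7% against 31.6% of all genes, with a median of 0.64. Between MC654 and MC659 2 were called, both lower in MC654, or 7.69% against 4.95% of all genes.

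Aldh3a1, an aldehyde dehydrogenase, was close to absent from the lines labelled WT, with 3 counts over their 4 libraries. It was at 53.4 and 50.6 CPM in MC010 and 9.20 and 8.90 CPM in MC011. The ratio to the lines labelled WT was 6040 for MC010, with an exact 95% interval of 2070 to 29300, and 1050 for MC011, with an interval of 358 to 5090, both for counting error only. Gsta4, a glutathione transferase that acts on products of lipid peroxidation, was at 104.6 and 101.7 CPM in MC010, 14.7 and 15.4 CPM in MC011, 4.02 and 3.13 CPM in MC654, with 6.58 and 6.45 CPM for MC659 (log2 between labels 3.55, SE 0.76, edgeR adjusted p = 0.00786). Aox1, an aldehyde oxidase, was at 27.5 and 28.2 CPM in MC010, 14.4 and 12 CPM in MC011, 4.82 and 5.51 CPM in MC654, with 3.62 and 4.07 CPM for MC659 (log2 2.19, SE 0.32, adjusted p = 0.00125). In each of these genes MC010 lay above MC011 and MC011 above both lines labelled WT, as for Nqo1. They were named for the size of their change between labels, so a difference between labels was part of the choice. Aldh3a1 and Gsta4 were also named for their difference between MC010 and MC011. Aldh3a1 passed the low-count filter only through the libraries labelled KO, so it could only be called higher. Not every target on the list kept this order, as Slc7a11 below shows.

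The counts by role stand against 22.5% of all genes called between labels and 31.6% between MC010 and MC011. The glutathione genes had 3 of 7 tested called between labels, all higher, and 5 of 7 called between MC010 and MC011. Slc7a11, the cystine transporter, was named for the second comparison: it was at 123.9 and 132.0 CPM in MC010 and 22.6 and 20.2 CPM in MC011, which lay below the 29.4 to 35.6 CPM of the lines labelled WT. The log2 difference between MC010 and MC011 was 2.58 (SE 0.06, edgeR adjusted p = 3.28e-14). Of the genes for quinones, conjugation and export, 3 of 7 were called between labels and 6 of 7 between MC010 and MC011. Aldh3a1 was among both, and between labels it could only be called higher. The thioredoxin genes had 1 of 3 called between labels (Prdx1) and the NADPH genes 1 of 3 (Pgd), both higher.

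No iron or heme gene on this list was called lower between labels, or in MC010 or MC011 against the lines labelled WT. Of 6 tested, 1 was called between labels (16.7% against 22.5% of all genes), Slc48a1, a heme transporter, higher at 0.63 (SE 0.06, edgeR adjusted p = 2.15e-04). MC010 had 3 called against the lines labelled WT, all higher, where 37.1% of all genes were called. MC011 had 0 called by edgeR, where 30.7% of all genes were called. At an adjusted p under 0.05 it had 3, where 65.3% of all genes passed, 2 higher and 1 lower. The lower gene was Blvra, a biliverdin reductase, at -0.50 on the log2 scale (SE 0.06, edgeR adjusted p = 3.55e-06). Blvrb, a biliverdin reductase, and Fth1, the ferritin heavy chain, were chosen for mention after their values were seen. Blvrb was at 96.3 and 81.7 CPM in MC010 and at 20.8 to 24.5 CPM in every other library. Fth1 was at 1764 and 1722 CPM in MC010 and at 967.4 to 1063 CPM elsewhere. Other genes of this role did not stand out in MC010: against the lines labelled WT, Ftl1, the ferritin light chain, was at 0.11 on the log2 scale and Blvra, the other biliverdin reductase, at -0.07.

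**Figure D4:**
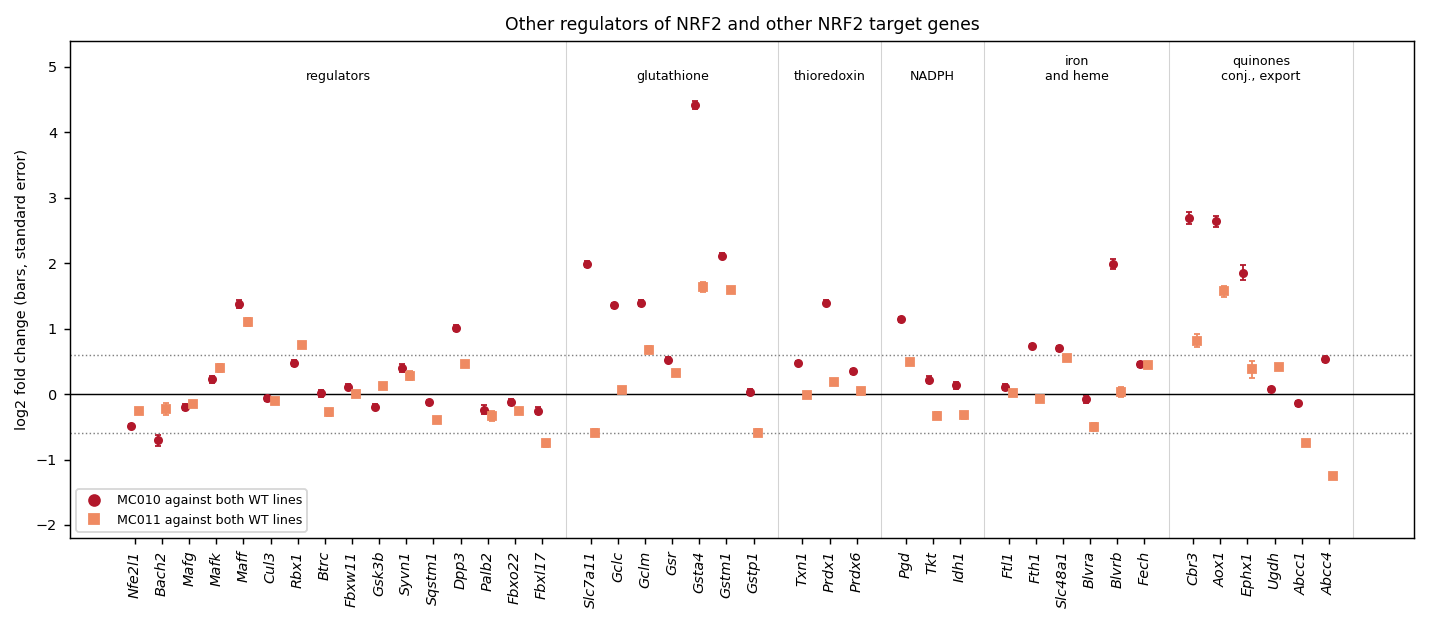
Log2 fold changes of the other regulators and other targets for MC010 and for MC011 against both lines labelled WT, grouped by role, with standard errors and dotted lines at 0.59. Aldh3a1 and Nfe2l3, whose counts were 3 or fewer in a group, are left out. Most targets lie above 0 in MC010, and several, such as Slc7a11, Blvrb and Abcc4, are separated widely between the lines.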

How the data were processed

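RNA-Seq of 8 libraries was analyzed. According to the submitters' processing notes the authors used STAR 2.7.3a, HTSeq 0.11.2 and DESeq2 with mm10 (GRCm38.p6). The deposited table holds raw counts per gene, which were used here, and the same values as normalized signal, scaled by a size factor for each library. Its columns with the authors' mean, fold change, error and p-values were not used. The kit was stranded, and the strand setting of HTSeq is not given in the sources used here. The table lists genes whose 8 counts add up to 20 or more, with none from chromosome X or Y.

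Counts were fitted with edgeR 4.0.16 in R 4.3.3 (quasi-likelihood, robust, TMM, filterByExpr by genotype), leaving 15153 genes, once by label and once by line. Adjusted p is Benjamini-Hochberg over all genes tested. CPM uses TMM library sizes, and RPKM the merged exon length from GENCODE vM21. DESeq2 1.42.0, limma 3.58.1, other scalings, no low-count filter, a replicate block, summed lines and leaving out libraries or lines were alternatives. The scripts were tested on simulated data. The 10 genes and the lists were chosen with earlier results of these data known. From each list, up to 3 called genes with the highest absolute change per direction were named between labels and between MC010 and MC011, with Irf8, the markers and the 3 genes nearest in pattern. Nothing says that the 2 libraries of a line came from separate cultures. The p-values of the fit by line therefore measure the spread between these libraries, which may be technical. The fit by label treats the libraries of a label as independent, although each label has 2 tumors. The spread behind its p-values mixes differences between tumors with differences between libraries of a line.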

Additional observations from a re-analysis of the deposited data

Results flagged for a closer look

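The effects of MC010 and MC011 against the same lines labelled WT were compared by the edgeR test of MC010 against MC011. They differed past both thresholds for 5 of the 10 NRF2 pathway genes, where 31.6% of all genes tested were called. They differed likewise for 5 genes that the naming rule took from the lists by the size of a change. These were among the 15 other targets and 1 regulator called there. The log2 differences, MC010 minus MC011, were 2.14 for Nqo1, 0.92 for Txnrd1, 0.93 for Srxn1, 1.04 for Osgin1 and 0.89 for Taldo1. Among the other targets they were 2.52 for Aldh3a1, 1.07 for Aox1, 2.78 for Gsta4 and 2.58 for Slc7a11. Nfe2l3 was the regulator lower in MC010, at -4.2, on 3 counts there. In the libraries labelled WT, Aldh3a1 was at 0 CPM in replicate 2 of MC659 and at 1 count in each of the others, a difference of 1 count at the floor that says nothing about that library. It was the 1 group of 36 with a value far from the others. The rule assumes independent values, whereas each group holds 2 lines of 2 libraries, so no rate expected by chance can be given.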

How the results depend on the processing

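The count of the 10 genes called between labels was 0 with counts summed per line, where 0 of all genes were called. It was 4 without MC010, where 29.4% of all genes were called, and 4 without MC659, where 11.6% were. Leaving out 1 library gave 6 to 8 called between labels, where 18.8% to 23.5% of all genes were called. In the fits by line it left 1 library in a line, so no counts are given for these. With no fold threshold, which 37.5% of all genes passed between labels, 63% between MC010 and MC011, 14.5% between MC654 and MC659, 70.6% for MC010 and 65.3% for MC011, the 10 genes had 9 called between MC010 and MC011, 4 between MC654 and MC659 and 9 for MC011. Of 17 regulators tested, 8 were then called between labels, 12 between MC010 and MC011, 5 between MC654 and MC659, and 15 each for MC010 and MC011. Of 26 other targets tested, 24 were called between MC010 and MC011, 4 between MC654 and MC659, 23 for MC010 and 20 for MC011.

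Signs turned only in differences near 0 that were not called. Between MC654 and MC659, leaving out 1 library gave -0.0079 to 0.0416 for Nfe2l2, -0.039 to 0.1326 for Keap1, -0.0688 to 0.0633 for Hmox1 and -0.0541 to 0.0815 for Taldo1, and Hmox1 was 0.002 with DESeq2 and 0.002 with its size factors in edgeR. For MC011 against the lines labelled WT, Taldo1 was -0.0158 to 0.0531 without 1 library and -0.0048 with upper-quartile scaling. The cause was not tested.

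Over all genes tested, same-numbered libraries did not deviate together (correlations of replicate differences between lines from -0.024 to 0.046). Such correlations cannot show a shared step that touched few genes, so none is excluded. With a replicate block edgeR called 6 of the 10 genes and 3106 of all genes between labels, and Txnrd1 was lost among the 10 (log2 0.78, adjusted p = 0.0557).

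Each label rests on 2 tumors. Depth did not limit the 10 genes, of which the lowest library held 145 counts, but it limits Aldh3a1 in the lines labelled WT and Nfe2l3 in MC010.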

Other observations

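For each of the 10 genes the genes whose pattern over the 8 libraries was nearest were found by the root mean square difference of log2 CPM after centring each gene on its own mean. This describes 8 libraries of 4 lines and carries no test. Nqo1 was nearest to Adh7 (0.124), B3gnt3 (0.129) and Meis2 (0.148), and Srxn1 to Arhgdib (0.0904), Akr1c14 (0.0958) and Bvht (0.102). Osgin1 was nearest to Mapkapk3 (0.181), to Aox1 (0.199), which is on the list of other targets, and to Anxa11 (0.202). The genes nearest to Txnrd1 were Lrp8, Fndc3a and Tor4a, at 0.0612 to 0.0692, and those nearest to Taldo1 were Kifc1, Ilvbl and Galnt10, at 0.0588 to 0.0606. Hmox1 was nearest to Actn4 (0.0422), Tnks1bp1 (0.0485) and Sirt2 (0.0533). Nfe2l2 was nearest to Eif1, Smug1 and Knstrn, Keap1 to Dad1, Fkbp2 and Fam109a, Bach1 to Cyth3, Magoh and Pfkm, and Me1 to Ipmk, Sdc2 and Cpe, all at 0.018 to 0.0426. None of the 10 was among the 3 nearest genes of another: the closest pairs by rank were Me1 to Bach1, at rank 78 of all genes tested, and Txnrd1 to Taldo1, at rank 86.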
